A study of Mus musculus with 18 samples.

Results

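Expression of 10 nuclear regulators of mitochondrial metabolism was followed in the mouse heart over the first 72 h of acute myocardial infarction (AMI). They were chosen by symbol as the PGC-1 coactivators and the PPAR, ERR and related factors that govern cardiac energy metabolism. They are the coactivators Ppargc1a, Ppargc1b and Perm1, the estrogen-related receptors Esrra and Esrrg, the fatty acid receptors Ppara, Ppard and Pparg, and the factors Nrf1 and Tfam. All 10 were found among the 24419 gene symbols of the expression table, and all 10 were among the 13333 genes tested, which reached at least 1 FPKM in at least 1 mouse. FPKM, the number of fragments divided by transcript length and by the mapped total, is a level scaled to transcript length and library size.

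The proximal left anterior descending coronary artery of male C57BL/6 mice, 8 weeks old, was ligated under sodium pentobarbital, and poly-T selected RNA of the left ventricle was sequenced. There were 18 separate mice with no genetic change and no drug treatment: 3 controls, called sham here, and 3 mice for each ligation time of 10 min, 1 h, 6 h, 24 h or 72 h. The AMI samples were infarcted myocardium, and the share of surviving tissue in each is not given in the sources used here. Nothing in the labels says how the 3 mice of a group were spread over days, so p-values measure only the spread between these mice.

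Ppargc1a encodes PGC-1α, a coactivator that has no DNA-binding domain of its own and is brought to promoters by the receptors and factors it binds. PPARα switches on genes of fatty acid uptake and oxidation, ERRα and ERRγ those of the citric acid cycle and the respiratory chain, and NRF1 those of nuclear-encoded mitochondrial proteins and of Tfam, whose product packages and transcribes mitochondrial DNA. In the adult heart, which burns mostly fatty acids, the pathway sustains ATP supply, and PERM1 is a striated muscle factor induced by PGC-1 and ERR.

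Promoter windows of RefSeq, 250 bases before to 50 bases after a start site on GRCm38.p6, were searched on both strands for short elements. Those of nuclear receptors, ERR and NRF1 were included. So were those of GABP, MEF2 and the cyclic AMP response, which are bound by factors outside the 10. Of the 10 genes, 9 had 15 windows in the table, and Ppargc1b had no entry. Matches were not limited to genes that fell. Examples ahead of 3 genes that were lower after ligation are shown 5′ to 3′ on the strand of the gene, without annotated exons, and capitals mark the match.
Ppargc1a, chr5:51567727-51567975, minus strand: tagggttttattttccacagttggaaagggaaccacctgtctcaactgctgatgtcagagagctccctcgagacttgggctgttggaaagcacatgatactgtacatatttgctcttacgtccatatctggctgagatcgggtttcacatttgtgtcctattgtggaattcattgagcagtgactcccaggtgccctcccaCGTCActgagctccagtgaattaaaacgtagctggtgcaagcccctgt
Perm1, chr4:156215677-156215867, plus strand: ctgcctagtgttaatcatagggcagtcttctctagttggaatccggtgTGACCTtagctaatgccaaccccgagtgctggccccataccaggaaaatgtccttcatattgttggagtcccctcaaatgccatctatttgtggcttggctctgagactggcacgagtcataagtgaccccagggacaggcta
Ppara, chr15:85735714-85735775, plus strand: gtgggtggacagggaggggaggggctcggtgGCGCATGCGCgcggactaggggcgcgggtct
The first holds the core of the cyclic AMP response element (TGACG, here as its reverse complement), which 20.8% of 32851 promoter windows also hold. The second holds the core that nuclear receptors bind (AGGTCA, again as its reverse complement), found in 16.3% of windows, and the third the NRF1 element (GCGCA and GCGC around any base), found in 4.60%. A GABP element, CCGGAAG, lay 47 bases before the Tfam start site in a stretch that GENCODE lists as exon, and 8.86% of windows hold one. The longer ERR element TNAAGGTCA, which contains AGGTCA, was in 0 of the 15 windows and in 1.28% of all, and the MEF2 element (CTA and TAG around 4 bases) was in a window of Esrrg and in 3.69% of all. The nuclear receptor core was also in 2 windows of Pparg, which was higher at 6 h, and the cyclic AMP core in a window of Ppard, which was not called, and in the Ppara window that holds the NRF1 element. A match is a run of letters and not a measured binding site.

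In sham hearts the levels of the 10 genes spanned from 3.73 to 142 FPKM. Esrra was highest at 142 ± 5.38 FPKM (SD, n = 3), above 95.7% of the tested genes, and Perm1 followed at 119 ± 2.61. Ppara stood at 30.6 ± 2.01, Ppargc1a at 21.4 ± 0.683 and Ppargc1b at 15.5 ± 2.71 FPKM. Tfam (8.03 ± 0.270), Ppard (6.71 ± 0.281), Nrf1 (5.90 ± 0.246) and Esrrg (5.37 ± 0.359) were near the middle of the tested genes, and Pparg was lowest at 3.73 ± 0.177 FPKM, above 35.5% of them. The 3 sham mice of neighbours in this order did not overlap, although the ranges of Nrf1 and Esrrg met at 5.73 FPKM.

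**Figure D1:**
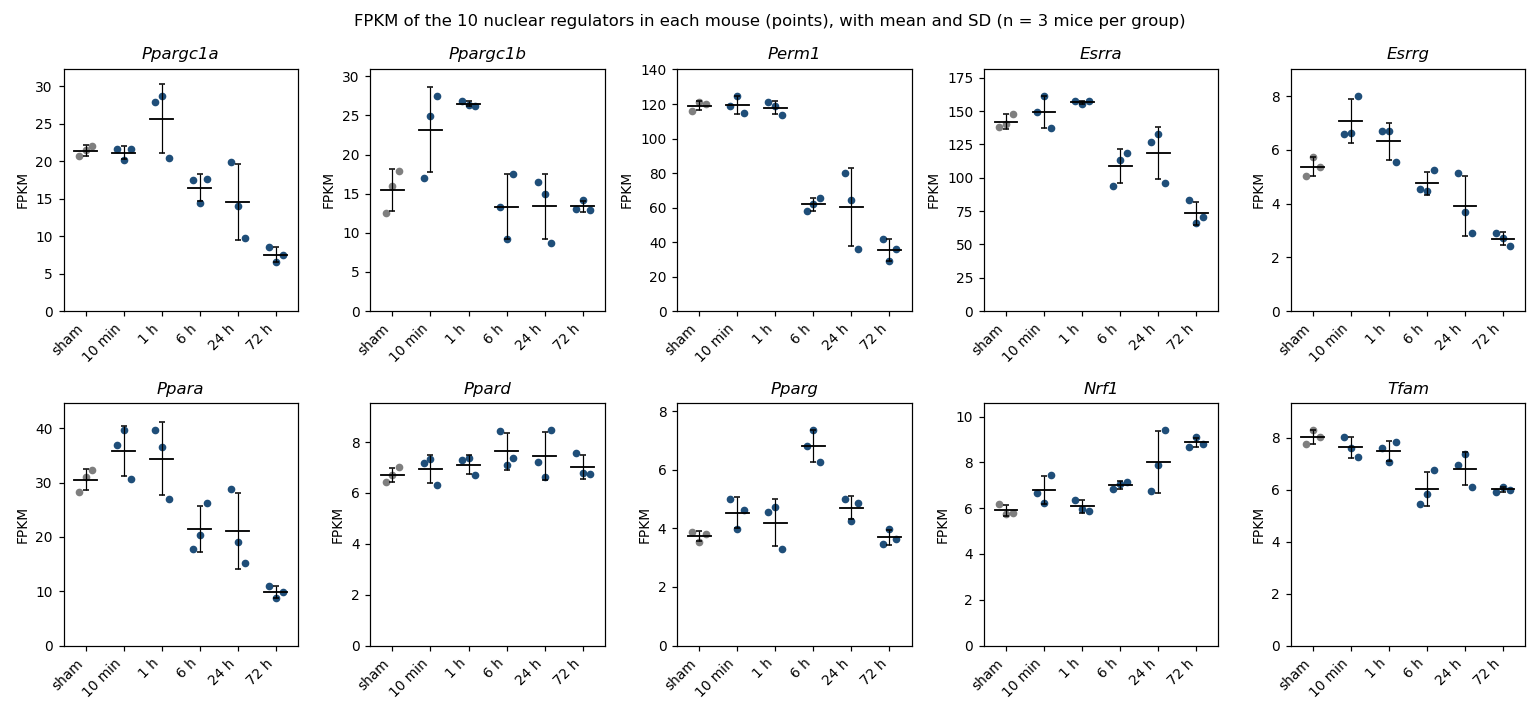
Level of each regulator in FPKM (vertical axis, from 0) in each of the 18 mice (points), by group (horizontal axis), with the mean (line) and SD (bar) of the 3 mice. Perm1 lay between 114 and 125 FPKM in sham, 10 min and 1 h mice and between 57.8 and 65.6 at 6 h.

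Whole-table facts bear on these levels. FPKM summed to between 542418 and 600467 per mouse, counts of fragments are not used here, and relative depth estimated from the lowest FPKM ran from 0.812 at 10 min to 1.32 at 72 h against the first sham mouse. The 15 cardiomyocyte markers, structural genes of the labelled tissue and none of them at 0 in a mouse, summed to between 78939 and 83113 FPKM in sham and to between 27034 and 34943 at 72 h. The 10 leukocyte markers summed to 65.1 to 88.3 FPKM in sham and 90.8 to 297 at 6 h. They reached 361 to 829 FPKM at 24 h and 1248 to 1415 at 72 h. At 72 h 9 of 9 fibroblast markers were called higher, where 53.1% of all genes were. The third 24 h mouse stood apart, with the lowest cardiomyocyte marker mean of its group (geometric mean 1787 FPKM against 2474 and 2485) and its highest leukocyte sum. In bulk tissue, fewer cardiomyocytes and less of a transcript per cardiomyocyte cannot be told apart.

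At 10 min after ligation none of the regulators had changed by the test used throughout, limma on log2(FPKM + 1) with Benjamini-Hochberg adjustment, where called stands for an adjusted p under 0.05. It called 0 of the 10, with 3 at an unadjusted p under 0.05, and called 0.346% of all 13297 genes tested in this comparison. The 3 were Ppargc1b (log2 fold change 0.54, adjusted p = 0.259), Esrrg (0.34, adjusted p = 0.191) and Pparg (0.22, adjusted p = 0.326). Esrrg read 6.59, 6.61 and 8.02 FPKM at 10 min against 5.02, 5.73 and 5.37 in sham, without overlap. Genes of the circadian clock, which is known to pace several metabolic regulators in the heart, did differ at this time. Arntl was at 3.52 FPKM against 0.389 in sham (log2 fold change 1.68, adjusted p = 0.0142) and Per3 at 11.4 against 28.6 (-1.29, adjusted p = 0.0433), with 2 of 15 clock genes higher and 2 lower. The time of day of sampling is not given in the sources used here, and its part in the levels of the regulators was not tested.

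At 1 h Ppargc1b, which encodes PGC-1β, a paralog of PGC-1α with many of the same partners, was the only regulator called. It read 26.9, 26.3 and 26.3 FPKM at 1 h against 12.6, 16.0 and 17.9 in sham. Every 1 h mouse was above every sham mouse, and the 3 lay within 1 FPKM of each other. The log2 fold change was 0.75 ± 0.11 (SE, adjusted p = 0.0353), where limma called 0.722% of all genes. The call was lost without the second sham mouse or without any 1 of the 1 h mice, in the fit of all 18 mice and with the whole table tested unfiltered. At 10 min the level was 17.1, 24.9 and 27.5 FPKM, of which the first overlapped sham. Esrra at 1 h was at 157 ± 1.28 FPKM (SD, n = 3), above sham in every mouse, without being called (log2 fold change 0.14, adjusted p = 0.281). Ppargc1a read 27.9, 28.8 and 20.5 FPKM, with the third mouse below all 3 sham mice, and was not called (0.24, adjusted p = 0.475), except without that mouse (adjusted p = 0.0340). None of the 15 clock genes was called at 1 h by limma, with 2 at an unadjusted p under 0.05.

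By 6 h several of the coactivator and receptor genes of oxidative metabolism had fallen and Pparg had risen. Perm1, Ppara, Esrra, Tfam and Ppargc1a were called lower, 5 of 10 where 16.8% of all genes were called lower, and Pparg was called higher where 11.6% were. The median log2 fold change of the 10 was -0.30, against -0.08 over all tested genes. The calls of Ppara, Esrra, Tfam and Ppargc1a were lost when any 1 of the 3 sham mice was left out, and those of Ppara and Tfam also without the first or the second 6 h mouse, while Perm1 and Pparg stayed called whichever mouse was left out. With each mouse scaled to its cardiomyocyte markers, 3 regulators were called, namely Perm1 lower and Pparg and Nrf1 higher. That scaling called 5.46% of all genes lower and 17.5% higher at 6 h.

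**Figure D2:**
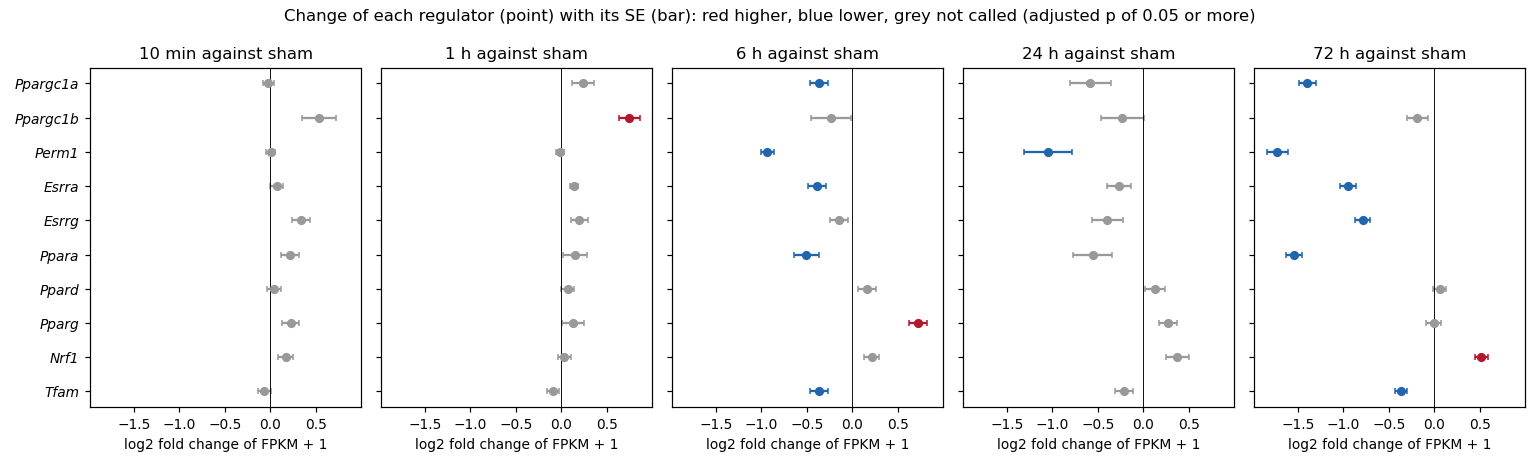
Log2 fold change of FPKM + 1 against sham (horizontal axis) of each regulator (vertical axis) at 5 times, with its SE as a bar, in red where called higher, blue where called lower and grey where not called. The number called lower was 5, 1 and 6 for the last 3 times. With mice scaled to cardiomyocyte markers, however, Ppargc1a and Ppara are not called at 72 h and Esrra, Esrrg and Tfam turn positive. That scaling calls 91.9% of all genes higher at 72 h.

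The coactivators changed by unlike amounts. Perm1 read 57.8, 62.2 and 65.6 FPKM at 6 h against 116, 121 and 119.9 in sham. All 3 mice were near 52.0% of the sham mean, and the log2 fold change was -0.93 ± 0.07 (SE, adjusted p = 0.000475). Perm1 had stood at 121, 119 and 114 FPKM at 1 h, so its level dropped between 1 h and 6 h (-0.92, adjusted p = 0.000925), in a comparison where limma called 11.2% of all genes lower and 9.32% higher. Ppargc1a read 17.5, 14.4 and 17.6 FPKM at 6 h against 20.7, 21.5 and 22.1 in sham. These mice did not overlap, and the log2 fold change was -0.36 ± 0.10 (SE, adjusted p = 0.0317), a call also lost under median-of-ratios scaling, in the fit of all 18 mice and with the replicate block. Ppargc1b read 13.3, 9.19 and 17.5 FPKM, spread across and below the sham range, and was not called against sham (-0.23, adjusted p = 0.453), but it was lower than at 1 h (-0.98 ± 0.20 in its SE, adjusted p = 0.0164), a call lost without any 1 of the 1 h mice and under scaling to cardiomyocyte markers.

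Among the receptors, Esrra read 94.1, 113 and 119 FPKM at 6 h against 138, 140.2 and 148 in sham. It did not overlap sham and was called lower (log2 fold change -0.39, adjusted p = 0.0249). Its gene shares 73 exonic bases with Trmt112 on the other strand, which stood at 18.5 FPKM at 6 h and 19.7 in sham, and whether strand was used in quantification is not given in the sources used here. Ppara read 17.8, 20.3 and 26.2 FPKM against 28.3, 31.1 and 32.3 in sham. The third 6 h mouse came within 2.2 FPKM of the lowest sham mouse, and the log2 fold change was -0.51 ± 0.14 (SE, adjusted p = 0.0332). Esrrg (4.48 to 5.24 FPKM) overlapped sham and was not called (-0.15, adjusted p = 0.288).

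Pparg, the receptor best known from adipocytes and macrophages, moved the other way. It read 6.82, 7.36 and 6.26 FPKM at 6 h against 3.86, 3.53 and 3.79 in sham. All 3 mice were above every mouse of every other group, and the log2 fold change was 0.72 ± 0.10 (SE, adjusted p = 0.00300). By 24 h it was at 5.01, 4.25 and 4.86 FPKM, above sham but not called (0.27, adjusted p = 0.0701), and at 72 h at 3.48, 3.98 and 3.65, overlapping sham (-0.01, adjusted p = 0.921). Of 10 adipocyte markers 3 were expressed highly enough to be tested. All 10 summed to 42.0 to 43.7 FPKM in sham, 46.6 to 59.4 at 6 h, then 25.5 to 27.9 at 72 h, with Lep, Retn and Ucp1 at 0 in every sham mouse and Adipoq, the most specific of them, at no more than 0.0578 FPKM at 6 h. The 10 endothelial markers summed to between 1585 and 1661 FPKM in sham and 2221 and 2452 at 6 h. Of them 3 were called higher and 3 lower, where 11.6% and 16.8% of all genes were. The mean of Fabp4, which is among these 10, was 827 FPKM in sham and 1443 at 6 h. Macrophage markers summed to between 333 and 434 FPKM at 6 h, against 375 to 444 in sham. Of these 10 markers 3 were called higher and 2 lower. Neutrophil markers summed to between 117 and 1001 FPKM at 6 h, against 2.56 to 5.28 in sham, and 6 of the 6 tested were called higher. The part of these cell types in the Pparg result was not tested.

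Ppard, the more widely expressed receptor of the family, varied little, from 6.32 to 8.48 FPKM over all 18 mice, and was not called in any comparison. Nrf1 read 6.82, 7.06 and 7.14 FPKM at 6 h against 6.19, 5.73 and 5.79 in sham, above it in every mouse, and was not called (0.21, adjusted p = 0.0973). Tfam read 5.46, 5.85 and 6.75 FPKM against 7.76, 8.30 and 8.02, below sham in every mouse (-0.37 ± 0.10 in its SE, adjusted p = 0.0327).

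At 24 h the spread between mice widened, and Perm1 was the only regulator called, at 80.3, 64.4 and 36.0 FPKM. Each was below sham (log2 fold change -1.04 ± 0.26, SE, adjusted p = 0.0231), and the call was lost without any 1 sham mouse and under scaling to cardiomyocyte markers (-0.45, adjusted p = 0.0590). At this time limma called 11.4% of all genes lower and 26.2% higher. Ppargc1a was at 19.9, 14.02 and 9.71 FPKM (-0.58, adjusted p = 0.0760). Ppara was at 28.9, 19.1 and 15.3 (-0.56, adjusted p = 0.0726) and Nrf1 at 6.76, 7.87 and 9.41 (0.37, adjusted p = 0.0529). The first 24 h mouse was nearest to sham in each, and without it Ppargc1a, Ppara, Esrrg and Perm1 were called lower and Nrf1 higher. The third mouse, that with the fewest cardiomyocyte and most leukocyte transcripts, was farthest from sham in these genes, and its part in them was not separately tested. Between 6 h and 24 h limma called 0 of the 10, with 1 at an unadjusted p under 0.05 (Pparg, -0.45, adjusted p = 0.0520), against 12.5% of all genes called higher and 1.94% lower.

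By 72 h the pathway had split into genes far below sham, genes that were not called and a single gene above it. Perm1, Ppara, Ppargc1a, Esrra, Esrrg and Tfam were called lower, 6 of 10 where 24.2% of all genes were called lower, and Nrf1 higher where 53.1% were, although with mice scaled to cardiomyocyte markers only Perm1 of the 6 stayed lower (-0.28, adjusted p = 0.0481), Ppargc1a (-0.03, adjusted p = 0.816) and Ppara (-0.15, adjusted p = 0.314) were not called, and Esrra, Esrrg and Tfam were higher. That scaling called 91.9% of all genes higher and 1.28% lower, with a median log2 fold change of 1.55 over all genes. Unscaled, the median log2 fold change of the 10 was -0.58, and that of all genes 0.29. Median-of-ratios scaling brought the median of all genes to 0.03 and its calls to 39.1% higher and 36.0% lower, and left these 6 lower and Nrf1 higher, with Ppargc1b, Ppard and Pparg lower as well.

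Perm1, Ppara and Ppargc1a had the largest log2 fold changes of the 10. Ppara read 11.0, 8.82 and 9.80 FPKM at 72 h, 32.3% of the sham mean, and every mouse was below every mouse of the other groups (log2 fold change -1.54 ± 0.09, SE, adjusted p = 9.52e-07). Perm1 read 41.8, 29.1 and 35.8 FPKM, 29.9% of the sham mean (-1.73 ± 0.12, SE, adjusted p = 2.14e-06), and overlapped the third 24 h mouse. Ppargc1a read 8.60, 6.57 and 7.47 FPKM, 35.2% of the sham mean and below every other mouse of the series (-1.40 ± 0.09, SE, adjusted p = 2.01e-06).

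The estrogen-related receptors also fell, by a smaller amount whose difference from these 3 was not tested. Esrra read 83.1, 66.3 and 70.4 FPKM (-0.95, adjusted p = 1.63e-05) and Esrrg 2.92, 2.71 and 2.43 (-0.79, adjusted p = 4.22e-05). They stood at 51.6% and 50.03% of their sham means, and Esrra remained the most abundant regulator. Tfam was at 5.93, 6.11 and 5.99 FPKM (-0.36, adjusted p = 0.00112), a level within its 6 h range.

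Ppargc1b, Ppard and Pparg were not called at 72 h. Ppargc1b read 13.0, 14.1 and 13.0 FPKM, inside the sham range (-0.19, adjusted p = 0.174). However, it was called lower without the first sham mouse and under median-of-ratios or quantile scaling. Ppard read 7.57, 6.78 and 6.73 FPKM (0.06, adjusted p = 0.516) and turned to -0.22 under scaling by median-of-ratios and to -0.40 under quantile normalization, which also called it lower. Nrf1 read 8.69, 9.11 and 8.80 FPKM, 150.2% of the sham mean and above every sham mouse (0.52 ± 0.07, SE, adjusted p = 0.000153). With quantile normalization its log2 fold change was 0.08 (adjusted p = 0.314).

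Between 24 h and 72 h Ppargc1a (-0.82, adjusted p = 0.0263), Esrra (-0.68, adjusted p = 0.0101) and Ppara (-0.98, adjusted p = 0.00933) were called lower (Ppargc1a not without the first or second 24 h mouse or the second or the third 72 h mouse), where limma called 13.5% of all genes lower and 29.7% higher. The fall of Perm1 over that interval (-0.68, adjusted p = 0.0896) was not called, and it was called without the third 24 h mouse. With mice scaled to cardiomyocyte markers the calls over this interval were lost, at -0.01 for Ppargc1a (adjusted p = 0.956), -0.17 for Ppara (adjusted p = 0.517) and 0.19 for Esrra (adjusted p = 0.358).

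Because the paralogs differed, their ratio was compared within each mouse. Ppargc1a stood at 1.65, 1.34 and 1.23 times Ppargc1b in sham and at 0.661, 0.465 and 0.577 times at 72 h. The mean ratio went from 1.41 ± 0.215 to 0.568 ± 0.0987 (SD, n = 3). PGC-1β transcripts thus outnumbered those of PGC-1α per length in every 72 h mouse. At 1 h and 24 h this ratio was also below sham without overlap, with means of 0.970 and 1.09. At 10 min and 6 h, with means of 0.953 and 1.29, it overlapped sham. Ppara stood at 4.40, 4.64 and 4.61 times Ppard in sham. This second ratio was above sham without overlap at 10 min (5.14, 5.41 and 4.85 times) and overlapped sham at 1 h (mean 4.82). It was below sham without overlap at 6 h (2.11, 2.87 and 3.56 times) and at 24 h (3.99, 2.89 and 1.80 times). At 72 h it averaged 1.40 ± 0.0890 times (SD, n = 3). Neither ratio overlapped sham at 72 h (log2 differences -1.21 and -1.60), and the exact two-sided permutation test gave p = 0.1 for each, the smallest that 3 against 3 mice allow.

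The regulators were then set against cardiomyocyte structural genes of the same mouse. Relative to the mean log2 FPKM of the 15 markers, which moved by -0.24 at 6 h, -0.60 at 24 h and -1.48 at 72 h, Perm1 was lower at 6 h (-0.70), 24 h (-0.46) and 72 h (-0.28). Its mice did not overlap sham at any of these times (exact permutation p = 0.1 each, the smallest possible). Ppargc1a (-0.04, p = 0.6 by the same exact test) and Ppara (-0.16, p = 0.2) overlapped sham on this scale at 72 h. Esrrg (0.48), Esrra (0.51), Tfam (1.06), Ppargc1b (1.28), Pparg (1.46), Ppard (1.54) and Nrf1 (2.06) were above the markers at 72 h, each without overlap and at the smallest p of 0.1, where 93.0% of all genes were above without overlap and 1.73% below. The median over the 10 genes was 0.79, against 1.82 over all genes on the same scale.

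**Figure D3:**
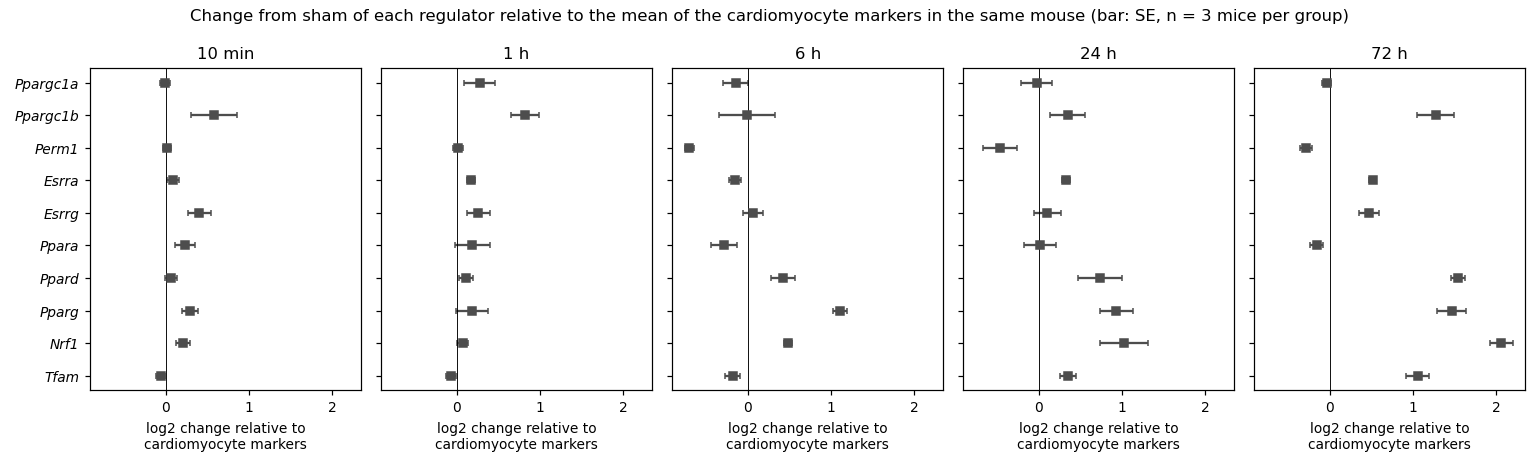
Log2 change from sham of each regulator (vertical axis) relative to the mean of 15 cardiomyocyte genes in the same mouse (horizontal axis), at 5 times, with the SE as a bar (n = 3 mice per group). Perm1 lies left of 0 from 6 h on, Ppargc1a and Ppara lie near 0 at 72 h, and the other 7 lie to its right.

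Genes that the regulators are known to control were called at different times. Of 22 ERR and PGC-1 targets, which encode enzymes of the citric acid cycle, respiratory chain subunits and other muscle energy proteins, limma called 0 at 6 h, with 1 at an unadjusted p under 0.05, then 18 lower at 24 h and 22 lower at 72 h. Their median log2 fold change was -0.09 at 6 h, when that of all genes was -0.08, then -0.49 and -1.41. Of all genes, 16.8% were called lower at 6 h, 11.4% at 24 h and 24.2% at 72 h. Cs, citrate synthase, stood at 608 ± 11.7 FPKM in sham and 563 ± 46.7 at 6 h (-0.12, adjusted p = 0.288), 436 ± 69.4 at 24 h (-0.49, adjusted p = 0.0236), then 229 ± 30.2 at 72 h (-1.41, adjusted p = 2.56e-06). The lowest relative to sham at 72 h were Cox7a1 (-2.36), Ckm (-2.16) and Cox6a2 (-1.97), the last 2 muscle forms of creatine kinase and of a cytochrome oxidase subunit. All 15 cardiomyocyte markers were also called lower at 72 h, 8 of them at 24 h and 4 at 6 h, and their part in the target levels was not tested.

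**Figure D4:**
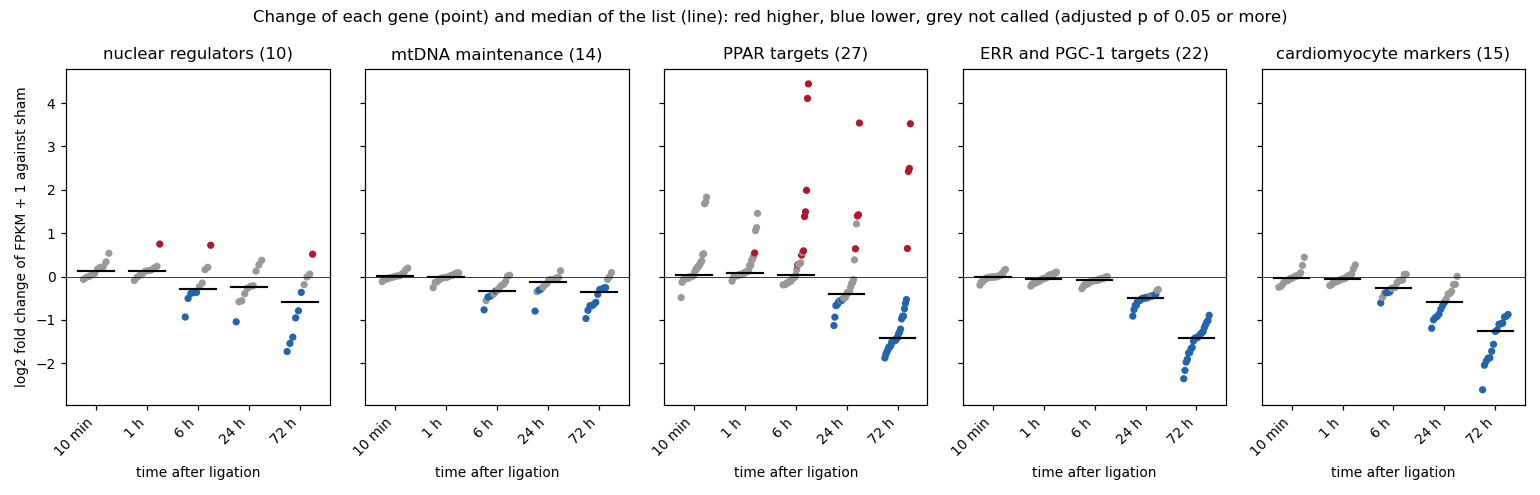
Log2 fold change of FPKM + 1 against sham (vertical axis) of each gene (points) of 5 lists by time after ligation (horizontal axis), with the list's median as a line, in red where called higher, blue where called lower and grey where not called. At 6 h the regulators' median was -0.30, while that of the ERR and PGC-1 targets was -0.09.

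Some PPAR targets, genes of fatty acid handling, were higher before most were lower. Of 27, limma called 8 higher and 0 lower at 6 h (11 at an unadjusted p under 0.05). It called 4 higher and 9 lower at 24 h, and 4 higher and 23 lower at 72 h. Of all genes, 11.6% were called higher and 16.8% lower at 6 h. The shares were 26.2% and 11.4% at 24 h, and 53.1% and 24.2% at 72 h. Pdk4, a kinase that shuts pyruvate out of oxidation, ranged from 77.6 to 118 FPKM in sham and from 1531 to 1921 at 6 h, 17.2 times the sham mean (log2 fold change 4.11, adjusted p = 4.60e-05). It ranged from 144 to 574 FPKM at 10 min and from 201 to 391 at 1 h, above every sham mouse at both times without being called, from 96.9 to 465 at 24 h, and from 53.8 to 61.5 at 72 h, when it was called lower (-0.74, adjusted p = 0.00111). Angptl4, an inhibitor of lipoprotein lipase, went from 0.430 ± 0.117 FPKM to 31.4 ± 11.7 at 6 h (4.44, adjusted p = 0.000150) and was still at 15.5 ± 2.73 at 72 h. Ucp3, a mitochondrial carrier of muscle, went from 21.7 ± 0.557 FPKM to 94.4 ± 35.5 at 6 h (1.99, adjusted p = 0.00333). It went to 10.6 ± 1.94 at 72 h (-0.98, adjusted p = 5.06e-05). Angptl4 and Ucp3 were also above every sham mouse at 10 min and 1 h without being called. Angptl4 ranged from 0.737 to 10.4 FPKM at 10 min and from 0.658 to 5.88 at 1 h. Ucp3 ranged from 29.4 to 183 FPKM and from 37.1 to 67.3 at these times.

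Targets for fatty acid oxidation itself were lower at 72 h. Cpt1b, which admits long-chain fatty acids to mitochondria, stood at 229.6 ± 7.21 FPKM in sham and 203 ± 21.1 at 6 h (-0.18, adjusted p = 0.152), and at 71.2 ± 13.1 at 72 h (-1.69, adjusted p = 2.71e-06). Acadm, a dehydrogenase of the same pathway, went from 351 ± 22.3 FPKM to 105 ± 14.96 at 72 h (-1.74, adjusted p = 1.12e-06). At 72 h the median log2 fold change was -1.27 for the 15 cardiomyocyte markers and -1.41 for the 27 PPAR targets. The part of the markers' fall in the target levels was not tested. Ucp2 and Plin2, genes of the list also expressed in leukocytes, were higher at 6 h, 24 h and 72 h, and Ucp2 reached 60.3 ± 8.12 FPKM at 72 h from 9.85 ± 0.770, beside the leukocyte marker sum given above, whose part in it was not tested. Acot1 was the single target called at 1 h (57.1 against 38.9 FPKM, log2 fold change 0.54, adjusted p = 0.0332).

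**Figure D5:**
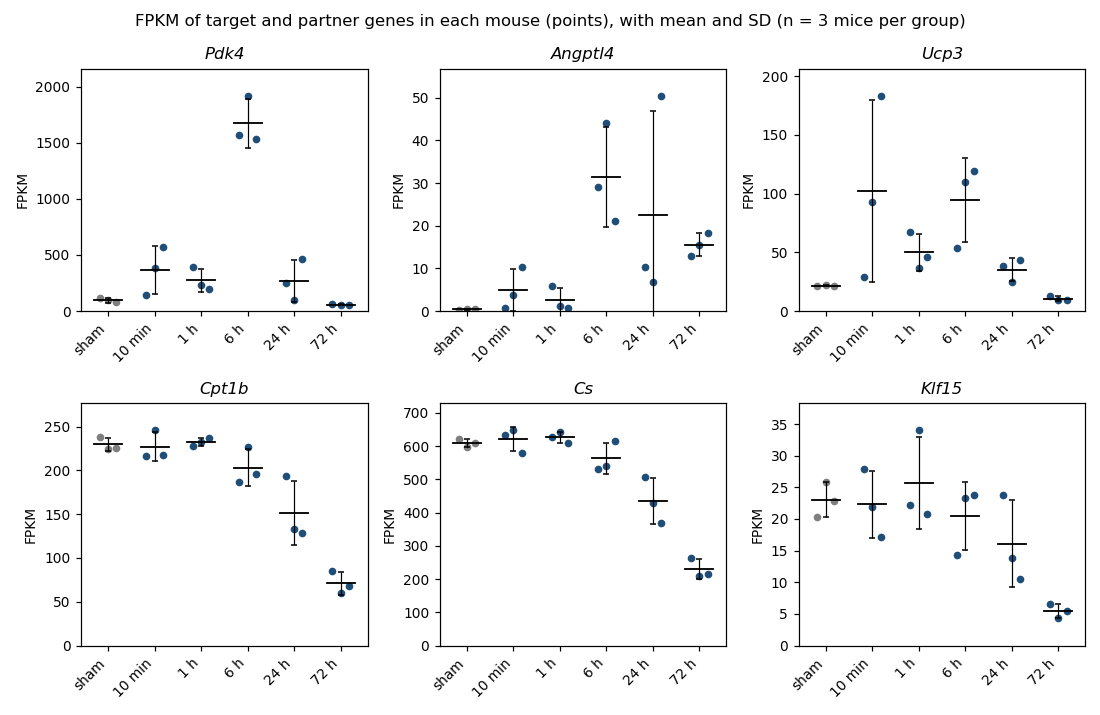
Level in FPKM (vertical axis, from 0) of the targets Pdk4, Angptl4, Ucp3, Cpt1b and Cs and of the factor Klf15 in each mouse (points) by group (horizontal axis), with the mean (line) and SD (bar) of 3 mice. Pdk4 peaks at 1673 FPKM at 6 h, while Cpt1b, Cs and Klf15 reach their lowest levels at 72 h.

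Some genes that act with Tfam in keeping and transcribing mitochondrial DNA were already lower at 6 h. Of 14, limma called 5 lower at 6 h (16.8% of all genes were), 3 at 24 h (11.4%) and 11 at 72 h (24.2%). The list medians were -0.32, -0.12 and -0.35, beside -0.08, 0.13 and 0.29 over all genes. Mterf2, of the mitochondrial termination factor family, read 4.03 FPKM at 6 h against 7.44 in sham (-0.77, adjusted p = 0.0152) and 3.32 at 72 h (-0.97, adjusted p = 1.57e-05). Tefm, the elongation factor (-0.67, adjusted p = 6.80e-05), and the helicase gene listed as Peo1 (-0.78, adjusted p = 1.86e-05) were lower at 72 h.

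Of 16 partner factors, 6 were called lower and 1 higher at 6 h, when 16.8% and 11.6% of all genes were, and 8 lower and 4 higher at 72 h, beside 24.2% and 53.1%. Rxrg, one of the RXR genes whose products pair with PPARs, went from 20.0 ± 1.00 FPKM to 10.8 ± 2.49 at 6 h (-0.85, adjusted p = 0.00853) and 7.11 ± 1.11 at 72 h (-1.38, adjusted p = 3.84e-06). Thra, the thyroid hormone receptor α, was lowest at 6 h, at 7.70 ± 0.713 FPKM against 13.4 ± 0.503 (-0.73, adjusted p = 0.00263). Esrrb, the third estrogen-related receptor, was at 2.83 against 8.09 FPKM at 72 h (-1.26, adjusted p = 1.10e-05). Klf15, a factor of cardiac lipid metabolism, was at 20.5 ± 5.32 FPKM at 6 h against 23.0 ± 2.77 (-0.19, adjusted p = 0.485) and at 5.44 ± 1.12 at 72 h (-1.91, adjusted p = 2.96e-06). Gabpa, a subunit of GABP, was not called at any time and stood between 7.42 and 11.2 FPKM in all mice.

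Similarity of pattern was measured for each regulator as the mean absolute difference, over the 18 mice, of log2(FPKM + 1) centred on sham, among 13121 genes. The nearest gene to Ppargc1a was Fhod3 (0.10) followed by Mfn1 and Peg13, and to Perm1 it was Mtfp1 (0.10) followed by Osbp2 and Pln, the last of which is among the cardiomyocyte markers. Esrra was nearest to Cluh (0.08), Esrrg to Atpaf1 (0.10), Ppara to Tnni3k (0.14) and Tfam to Csnk2a1 (0.05). Nrf1 was nearest to Zfp821 (0.07), Pparg to Hipk1 (0.11) and Ppard, which hardly moved, to Scaf8 (0.07). Ppargc1b and Ppard had no match that was close beside their own mean deviation from sham. For Ppargc1b that deviation was 0.38, and its nearest gene was Prox1 (0.19). For Ppard the deviation was 0.09, against 0.07 for Scaf8.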

How the data were processed

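Poly-T selected RNA of 18 left ventricles was sequenced by the authors as 150-base read pairs. Trimming (cutadapt 1.18), mapping to mm10 (HISAT2 2.1.0) and quantification (StringTie 1.3.4d) were done by the authors, who deposited FPKM per gene symbol and mouse, all 18 value columns of which were used as deposited. The annotation is not given in the sources used here. Groups came from the sample labels.

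Values were analysed as log2(FPKM + 1), so fold changes understate those of low genes. Each comparison was fitted on its own 6 mice with limma 3.58.1 in R 4.3.3 (lmFit, eBayes with a variance trend), two-sided, adjusted by Benjamini-Hochberg across every gene with at least 1 FPKM in at least 1 mouse. Cufflinks, which the study used, needs reads. Ratios were compared with exact permutation tests (scipy 1.17.1). On simulated data with the means and spreads of the sham mice, limma called 191 of 200 genes changed by 1 log2 unit. It also called 10 of 13133 unchanged genes. The changed genes were drawn only from those above a set sham level, and both groups had sham spreads. The rate therefore need not hold where mice spread more, such as at 24 h. Replicate numbers did not pair the mice, as in 0 of 8 comparisons did every same-numbered pair of deviations correlate above 0.1 (range -0.33 to 0.41). Positions and exons are of GENCODE M21 on mm10.

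The regulators and gene lists were chosen with earlier results of these data known. Named genes are the 10 regulators, per list and comparison up to 3 called lower and 3 called higher with the largest change and no overlap, Pdk4, Cpt1b, Acadm, Cs, Ucp3, Klf15, Rxrg and Gabpa at any time, and the 3 nearest patterns. Trmt112, Adipoq, Fabp4 and the Ucp2 and Plin2 values at 6 h were added after values were seen. Alternatives were a smaller pseudocount (0.1), the unfiltered table, a filter on the mean, 3 other scalings, all mice in 1 fit, the replicate block, no variance trend and leaving out each mouse.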

Additional observations from a re-analysis of the deposited data

Results flagged for a closer look

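Regulators whose change against sham differed between neighbouring times, by limma's test of the difference itself, were these. From 1 h to 6 h, the difference in log2(FPKM + 1) was -0.60 for Ppargc1a (adjusted p = 0.0300), -0.98 for Ppargc1b (adjusted p = 0.0164), -0.92 for Perm1 (adjusted p = 0.000925), -0.53 for Esrra (adjusted p = 0.0124) and -0.66 for Ppara (adjusted p = 0.0415). Pparg differed by 0.60 in the other direction (adjusted p = 0.0255). Without the second 1 h mouse, Perm1 alone of these 6 was called. From 24 h to 72 h it was -0.82 for Ppargc1a (adjusted p = 0.0263), -0.68 for Esrra (adjusted p = 0.0101) and -0.98 for Ppara (adjusted p = 0.00933). The cardiomyocyte markers moved from -0.60 to -1.48 against sham over the latter interval, and with mice scaled to them these 3 calls were lost. Groups of 3 mice are too small for a check for outlying mice.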

How the results depend on the processing

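The table gives no counts, so precision rests on 3 mice a group. At 72 h the number of regulators called was within 1.5 times the 7 reported under every alternative, but not always for the same genes. Scaling to cardiomyocyte markers ended the calls of Ppargc1a and Ppara, left Perm1 lower and turned Esrra, Esrrg and Tfam higher. It also called Ppargc1b, Ppard and Pparg higher, where it called 91.9% of all genes higher. At 6 h (6 called) the number of regulators called was 3 with this scaling. The number ranged from 2 to 6 with a mouse left out, the 2 without any 1 sham mouse. At 1 h (1 called) it was 0 with no filter, with all 18 mice in 1 fit, with the replicate block and with no variance trend, and 0 to 1 with a mouse left out. The labels do not say what the replicate numbers stand for. The block on them also lost Ppargc1a and Tfam at 6 h and Ppargc1a and Ppara between 1 h and 6 h. At 24 h (1 called) it was 2 with a pseudocount of 0.1 or a filter on the mean, 3 with median-of-ratios scaling or quantile normalization, 4 with scaling to cardiomyocyte markers and 6 with all 18 mice in 1 fit, and ranged from 0 without any 1 sham mouse to 5 without the first 24 h mouse. Between 1 h and 6 h (6 called) it was 3 with scaling to cardiomyocyte markers and ranged from 1 to 6 with a mouse left out. Between 6 h and 24 h (0 called) it was 1 with a filter on the mean, each of the 3 other scalings, all 18 mice in 1 fit or no variance trend. Between 24 h and 72 h (3 called) it was 7 with quantile normalization and 6 with all 18 mice in 1 fit, and ranged from 2 to 5 with a mouse left out. The Ppara to Ppard log2 difference at 72 h was -1.69 with a pseudocount of 0.1, against -1.60. Scaling to cardiomyocyte markers, which by construction removes their fall, turned the log2 fold change to 0.32 for Esrra at 24 h, to 1.21 for Ppargc1b, 0.51 for Esrra, 0.39 for Esrrg, 1.204 for Pparg and 0.95 for Tfam at 72 h, and to 0.19 for Esrra, 0.73 for Ppard and 0.64 for Tfam between 24 h and 72 h. It also changed the sign of values called in neither fit, to 0.02 for Perm1 at 1 h, 0.05 for Esrrg at 6 h, 0.32 for Ppargc1b, 0.31 for Tfam, 0.09 for Esrrg and 0.014 for Ppara at 24 h, 0.11 for Ppargc1a, 0.24 for Perm1, 0.04 for Esrrg, 0.28 for Ppara and 0.28 for Ppard between 6 h and 24 h, and 0.18 for Perm1, 0.31 for Esrrg and 0.46 for Pparg between 24 h and 72 h. Ppard at 72 h turned to -0.22 under scaling by median-of-ratios and to -0.40 under quantile normalization, and the cause was not tested.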

Other observations

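Coregulators and the energy sensor AMPK, which are known to modify PGC-1α activity, were also measured. Of 14 other corepressors and coactivators, limma called 2 higher at 6 h, 3 higher at 24 h, and 6 higher and 2 lower at 72 h. Of all genes 11.6% were called higher at 6 h, 26.2% at 24 h and 53.1% at 72 h, when 24.2% were lower, so these shares lie near or below the background. Pprc1, the third PGC-1 family coactivator, went from 6.40 ± 0.677 FPKM in sham to 15.1 ± 4.91 at 6 h (a log2 difference of 1.08, adjusted p = 0.00908), and stood at 14.6 ± 5.66 at 24 h (1.02, adjusted p = 0.0182) and 13.9 ± 1.24 at 72 h (1.02, adjusted p = 1.54e-05). Its level lay above every sham mouse at these 3 times, when Ppargc1a lay below every sham mouse. Sirt1, a deacetylase, was higher at 6 h (13.9 against 9.73 FPKM, a log2 difference of 0.47, adjusted p = 0.0139).

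Of 8 AMPK genes, 3 were called lower at 6 h, 1 higher at 24 h, and 2 higher and 4 lower at 72 h, where 16.8%, 26.2%, 53.1% and 24.2% of all genes were called in those directions. The catalytic subunits parted at 72 h, Prkaa2, the muscle form, going from 27.3 to 13.4 FPKM (-0.98, adjusted p = 6.22e-06) and Prkaa1 from 11.3 to 21.2 FPKM (0.84, adjusted p = 0.000102).

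Clock genes differed most at 72 h, with 3 of 15 higher and 12 lower, where 53.1% and 24.2% of all genes were. Arntl stood at 10.1 ± 0.828 FPKM against 0.389 ± 0.0921 in sham (adjusted p = 3.43e-08) and Dbp at 3.35 ± 0.540 against 89.0 ± 2.49 (-4.38, adjusted p = 1.11e-08). At 6 h the list had 3 higher and 6 lower, beside 11.6% and 16.8% of all genes. At 24 h it had 1 higher and 8 lower, beside 26.2% and 11.4%. The sampling hours of the groups are not given in the sources used here, and their part in these levels was not tested.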
